A study of Homo sapiens with 9 samples.

Results

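Genes of glycolysis and of the response to low oxygen were followed across 9 whole-transcript arrays from MCF-10A, a cell line of human breast epithelium that forms no tumours. Members were chosen by symbol from a list of 43, and each was read from the array row that carries its symbol alone, or from the row with the highest mean where there were several. Of the 43, 40 had such a row, among 22411 genes in all. SLC16A1, SLC16A3 and CA9 had none and were not analysed here. ENO1 had 2 rows and the other 39 had 1. The groups were cells expressing ERK2 D319N, cells expressing ERK2 Y261A and cells with an empty vector control, with 3 arrays each. All 3 groups, the vector cells included, received doxycycline to switch on a Tet-on construct and grew on plastic for 7 days. The medium held 5% horse serum, 20 ng/ml EGF, insulin, hydrocortisone and cholera toxin, so the controls also received the drug, the growth factor and the hormones. ERK2 is a MAP kinase that MEK activates downstream of RAS and RAF. D319N changes the common docking domain, which binds partners with a D motif, and Y261A changes a separate pocket that recognises substrates with a DEF motif. No group with wild-type ERK2 was analysed here, and the labels do not say whether each line is a clone or a pool. The design text calls the replicates individual without saying that they are separate cultures. The p-values therefore reflect no more than the variation among these arrays, and that variation may be technical. The level of ERK2 itself was not used here as a check of the labels.

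Glycolysis splits glucose to pyruvate in the cytosol. Pyruvate then either enters the mitochondria or is reduced to lactate, which leaves the cell. When oxygen is scarce, the prolyl hydroxylases of the EGLN family stop marking the alpha subunits of hypoxia-inducible factor (HIF) for degradation. The stabilised alpha subunits pair with ARNT and bind the letters ACGTG or GCGTG in their targets, among them genes of glucose uptake, glycolysis, lactate production, angiogenesis, pH control and mitophagy. HIF is regulated mostly at the protein level, which arrays do not measure.

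Values are log2 signals summarised per transcript by RMA, and a mean under 4.85, the mean of the 23 background probe sets, is read as near background. A member was called at an adjusted p under 0.05 in a limma fit over all 22411 genes and 9 arrays. Pairs of replicate arrays had correlations of 0.996 to 0.998 in D319N, 0.995 to 0.998 in Y261A and 0.998 to 0.999 in vector cells, across genes. RMA can return one value for several arrays, and for 20 of the 40 members 2 or more arrays of a group gave the same number (for 10, all 3), so their spread may be understated. D319N replicate 2 and Y261A replicate 3 deviated together from their group means (r = 0.60 across genes, and genes are not independent replicates). Of 12 markers of basal mammary epithelium, 8 were measured and all lay above background in each group. Background alone does not tell cell types apart. In D319N cells only 2 of 9 fibroblast, 1 of 7 leukocyte and 2 of 6 endothelial markers lay below it. The mean signal of the basal list was above that of the other marker lists in each group. On an array the basal mean was 8.77 to 8.98 in D319N, 9.50 to 9.63 in Y261A and 9.64 to 9.72 in vector cells. Of the basal markers 5 fell and 1 rose in D319N cells. Of 9 measured fibroblast markers, 3 rose in D319N cells, with a list mean of 5.89 to 5.90 in D319N, 5.30 to 5.35 in Y261A and 5.12 to 5.15 in vector cells, and PDGFRA and LUM were near background throughout. In Y261A cells 2 fibroblast markers rose and 1 leukocyte marker fell. Of 7 leukocyte markers 1 rose and 1 fell in D319N cells, of 6 endothelial markers none was called by limma (1 at an unadjusted p under 0.05), and PTPRC, PECAM1 and TEK were near background in each group. The part of these marker shifts in the results was not tested. In such bulk samples, fewer cells of a kind and less RNA per cell cannot be told apart.

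In D319N cells the called members that carry glucose to lactate all fell, while most called HIF subunits and hypoxia targets outside that route rose. Of 22 members between glucose uptake and lactate, 9 fell and none rose (11 lower and none higher at an unadjusted p under 0.05), with log2 differences of -0.42 to -0.15 among the 9. Of 18 HIF subunits, HIF hydroxylases and hypoxia targets, 11 rose, by 0.20 to 2.01 on the log2 scale, and 1, DDIT4, fell by 1.04. Together 21 of 40 members (52.5%) were called against vector, 11 higher and 10 lower, while 16.6% of all genes were called, 8.93% higher and 7.66% lower. With the arrays centred on their medians the split was 11 higher and 5 lower. In 25 members the D319N and vector arrays did not overlap, 13 higher and 12 lower, against 32% of all genes (15.1% higher and 16.9% lower). At an unadjusted p under 0.05 there were 23 members, against 28.5% of all genes. The median difference was -0.09 over the glucose to lactate members, 0.27 over the HIF and hypoxia members and -0.03 over all genes. The members were put into these 2 families after their values were seen, so the contrast between the families is a description with no test. Genes of glucose uptake, glycolysis and lactate production are also among the targets of HIF. The families therefore do not divide hypoxia targets from other genes.

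Promoter sequences of some members that fell and some that rose are shown because windows of both kinds can hold the letters that HIF recognises. They were chosen after the values and matches were seen. HK2, LDHA and KDM3A have a further window each that is not shown, with fewer matches for HK2 and LDHA. They are RefSeq windows of GRCh38.p14, from 250 bases before to 50 after an annotated transcription start, 5′ to 3′ on the gene's strand. Capitals mark every ACGTG and GCGTG, read on both strands (CACGT and CACGC on the strand shown). BHLHE40, CA12 and KDM3A rose in D319N cells.
BHLHE40 (chr3:4979187-4979486, plus strand): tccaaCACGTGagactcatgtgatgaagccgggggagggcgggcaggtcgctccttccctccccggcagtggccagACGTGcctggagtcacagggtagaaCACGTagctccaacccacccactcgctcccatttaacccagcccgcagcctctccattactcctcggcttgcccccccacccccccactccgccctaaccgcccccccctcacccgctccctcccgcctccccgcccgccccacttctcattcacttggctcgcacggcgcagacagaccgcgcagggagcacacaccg
CA12 (chr15:63381797-63382096, minus strand): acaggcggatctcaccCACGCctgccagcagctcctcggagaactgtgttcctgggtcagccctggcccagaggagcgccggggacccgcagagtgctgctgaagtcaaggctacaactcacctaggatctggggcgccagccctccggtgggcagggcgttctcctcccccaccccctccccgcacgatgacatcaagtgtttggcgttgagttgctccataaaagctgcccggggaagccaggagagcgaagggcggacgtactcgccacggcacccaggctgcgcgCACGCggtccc
KDM3A (chr2:86441121-86441420, plus strand): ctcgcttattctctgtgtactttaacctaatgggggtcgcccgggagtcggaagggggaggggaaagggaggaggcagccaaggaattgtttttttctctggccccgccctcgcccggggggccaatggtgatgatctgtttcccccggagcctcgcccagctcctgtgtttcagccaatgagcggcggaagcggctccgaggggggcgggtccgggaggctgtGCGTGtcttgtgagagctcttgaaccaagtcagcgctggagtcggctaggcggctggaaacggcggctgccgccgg
HK2, LDHA and DDIT4 fell.
HK2 (chr2:74834920-74835219, plus strand): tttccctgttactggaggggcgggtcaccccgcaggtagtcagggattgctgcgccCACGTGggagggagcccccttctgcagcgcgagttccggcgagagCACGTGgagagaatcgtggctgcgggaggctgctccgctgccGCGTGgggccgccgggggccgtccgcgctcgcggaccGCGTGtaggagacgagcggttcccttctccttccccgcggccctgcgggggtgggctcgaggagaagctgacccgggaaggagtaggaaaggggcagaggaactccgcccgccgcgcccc
LDHA (chr11:18394313-18394612, plus strand): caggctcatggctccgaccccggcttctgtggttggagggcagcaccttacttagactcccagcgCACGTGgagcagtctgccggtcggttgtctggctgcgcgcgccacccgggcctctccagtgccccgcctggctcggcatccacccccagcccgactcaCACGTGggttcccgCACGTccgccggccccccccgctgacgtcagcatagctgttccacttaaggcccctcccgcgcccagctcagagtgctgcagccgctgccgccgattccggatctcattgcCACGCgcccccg
DDIT4 (chr10:72273674-72273973, plus strand): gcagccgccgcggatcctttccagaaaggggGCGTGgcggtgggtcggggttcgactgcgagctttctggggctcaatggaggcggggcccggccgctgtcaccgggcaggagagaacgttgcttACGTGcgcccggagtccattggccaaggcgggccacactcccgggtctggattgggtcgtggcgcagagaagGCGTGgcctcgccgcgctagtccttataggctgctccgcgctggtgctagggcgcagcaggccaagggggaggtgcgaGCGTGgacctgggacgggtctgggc
Windows of 1 gene can overlap. They were found for 35 of the 40 members, 59 in all, and not for SLC2A3, STC1, BNIP3L, NDRG1 and VEGFA. ACGTG was present in 39.0% and GCGTG in 44.1% of the members' windows, against 21.4% and 36.5% of all 35116 windows of the same length. At least 1 of these was in 69.5% of member windows and 48.4% of all windows. P4HA2, which rose, and PGAM1, which fell, had no match. Among members that rose, 1 of 9 windows held ACGTG and 6 held GCGTG. Among members that fell, 9 of 20 windows held ACGTG and 8 held GCGTG. The 9 windows came from 7 of the 11 genes that rose, as STC1, BNIP3L, NDRG1 and VEGFA had none. The 20 came from all 10 genes that fell, with 7 of them from PFKM alone. Coverage this uneven cannot show whether the kinds differ in these letters. Every CACGTG, an E-box that MYC and BHLHE40 proteins also bind, contains ACGTG on both strands, and it was in 15.3% of member windows and 7.26% of all windows. HK2 and LDHA each had a window with 2 such E-boxes. A match describes the letters and is not a measured binding site.

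Both HIF alpha subunits were higher in D319N cells. HIF1A, which encodes the broadly expressed alpha subunit, had 10.59, 10.61 and 10.54 on the D319N arrays, 9.92, 9.82 and 9.75 on the Y261A arrays and 10.01, 10.01 and 9.92 on the vector arrays. All D319N arrays lay above all other arrays, and the rise against vector was 1.51-fold (log2 0.60 ± 0.05 SE, adjusted p = 0.000235). EPAS1, which encodes the alpha subunit of HIF-2, had 9.37, 9.21 and 9.41 on the D319N arrays, 8.97, 8.93 and 8.79 on the Y261A arrays and 8.72, 8.77 and 8.78 on the vector arrays. The 3 groups did not overlap, with D319N highest and vector lowest, and EPAS1 rose 1.49-fold in D319N cells (log2 0.57 ± 0.06 SE, adjusted p = 0.00105). EGLN1, the main prolyl hydroxylase of HIF, was not called and averaged 8.23 ± 0.01 in D319N, 8.18 ± 0.08 in Y261A and 8.23 ± 0.01 in vector cells (SD, n = 3 each). EGLN3, a hydroxylase that is itself a HIF target in many cells, stood near background and averaged 4.73 ± 0.00 in D319N, 4.73 ± 0.05 in Y261A and 4.73 ± 0.00 in vector cells.

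**Figure D1:**
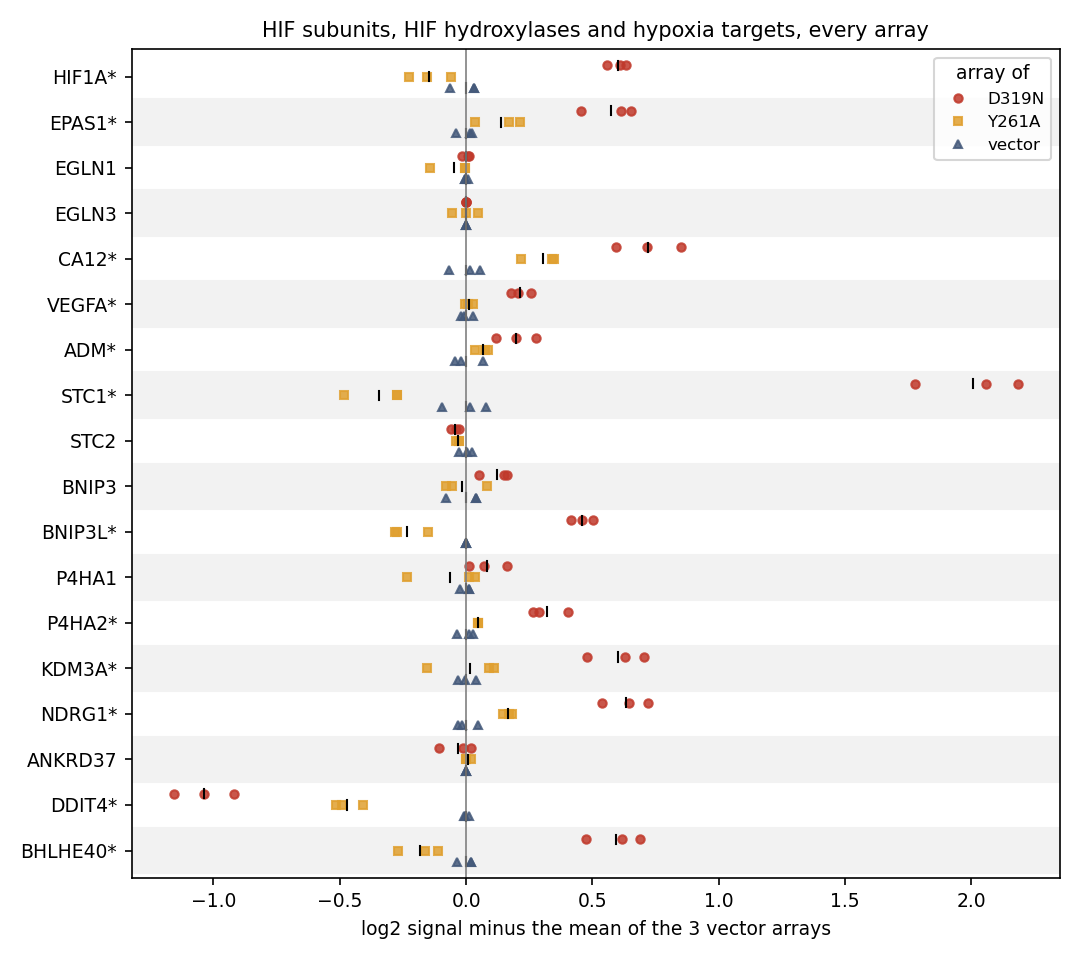
Log2 signal of each HIF and hypoxia member on each array minus the mean of the 3 vector arrays (x axis), with D319N as circles, Y261A as squares, vector as triangles and black ticks at group means; an asterisk marks a call in D319N against vector. The D319N circles lie to the right for 11 members and to the left for DDIT4, and STC1 stands farthest out.

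The secreted factors gave the widest range. STC1 encodes stanniocalcin, a secreted glycoprotein hormone, and had 8.28, 7.995 and 8.40 on the D319N arrays, 5.95, 5.95 and 5.74 on the Y261A arrays and 6.24, 6.13 and 6.30 on the vector arrays. It was the member with the largest change and rose 4.01-fold in D319N cells (log2 2.01 ± 0.11 SE, adjusted p = 4.84e-05), with every D319N array above every other array and every Y261A array below every vector array. VEGFA, the angiogenic growth factor, had 7.67, 7.70 and 7.75 on the D319N arrays, 7.53, 7.49 and 7.51 on the Y261A arrays and 7.48, 7.49 and 7.53 on the vector arrays. Its rise in D319N cells was small, 1.16-fold (log2 0.21 ± 0.03 SE, adjusted p = 0.00147), and without overlap with either other group. The call of VEGFA ended (adjusted p = 0.110) under a spread floor, which raises the spread of genes with ties to at least the median of genes without. VEGFA had no ties within a group, so its own spread was not raised. Its call changed through the moderation and the adjustment, which are shared by all genes. ADM, which encodes the vasodilator peptide adrenomedullin, averaged 6.74 ± 0.08 in D319N, 6.61 ± 0.03 in Y261A and 6.54 ± 0.06 in vector cells and rose 1.15-fold (log2 0.20 ± 0.05 SE, adjusted p = 0.0265). ADM lost this call without D319N replicate 1 (adjusted p = 0.0710) or 2 (0.0545) and without vector replicate 1 (0.0923) or 2 (0.0976). STC2, a paralog of STC1, was not called (log2 -0.04 ± 0.02 SE, adjusted p = 0.203).

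Targets with roles in pH, mitochondria and hydroxylation also rose. CA12, a carbonic anhydrase at the cell surface, had 8.47, 8.35 and 8.61 on the D319N arrays, 8.10, 8.11 and 7.98 on the Y261A arrays and 7.69, 7.77 and 7.81 on the vector arrays. The groups stood in 3 separate steps, and CA12 rose 1.65-fold in D319N cells (log2 0.72 ± 0.07 SE, adjusted p = 0.000566). BNIP3L, a receptor for the removal of mitochondria by autophagy, had 8.58, 8.63 and 8.67 on the D319N arrays, 8.02, 7.89 and 7.90 on the Y261A arrays and 8.17, 8.17 and 8.17 on the vector arrays. The vector arrays share an identical value. D319N lay above and Y261A below it on every array, and the rise in D319N was 1.37-fold (log2 0.46 ± 0.04 SE, adjusted p = 0.000313). Its paralog BNIP3 was not called (log2 0.12 ± 0.06 SE, adjusted p = 0.215).

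KDM3A, a demethylase of histone H3 lysine 9, had 6.76, 6.62 and 6.84 on the D319N arrays, 6.23, 6.25 and 5.98 on the Y261A arrays and 6.13, 6.11 and 6.18 on the vector arrays. Only the D319N arrays stood apart, and KDM3A rose 1.52-fold (log2 0.60 ± 0.08 SE, adjusted p = 0.00260). P4HA2, a catalytic subunit of collagen prolyl hydroxylase, had 7.32, 7.34 and 7.46 on the D319N arrays, 7.10, 7.10 and 7.10 on the Y261A arrays and 7.01, 7.06 and 7.08 on the vector arrays. It rose 1.25-fold in D319N cells (log2 0.32 ± 0.04 SE, adjusted p = 0.00135), while its paralog P4HA1 was not called (log2 0.08 ± 0.07 SE, adjusted p = 0.493).

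The regulators among the targets went both ways. NDRG1, a stress-induced gene linked to reduced metastasis and to differentiation, had 8.77, 8.66 and 8.84 on the D319N arrays, 8.30, 8.29 and 8.27 on the Y261A arrays and 8.10, 8.09 and 8.17 on the vector arrays. The groups did not overlap, and the rise in D319N cells was 1.55-fold (log2 0.63 ± 0.05 SE, adjusted p = 0.000158). BHLHE40, a transcriptional repressor of the circadian and hypoxia responses, had 8.42, 8.21 and 8.35 on the D319N arrays, 7.62, 7.57 and 7.47 on the Y261A arrays and 7.75, 7.70 and 7.75 on the vector arrays. It rose 1.51-fold in D319N cells (log2 0.59 ± 0.06 SE, adjusted p = 0.000698), and its Y261A arrays lay below the vector arrays. DDIT4, also called REDD1, is an inhibitor of mTORC1 that hypoxia, glucocorticoids and energy stress induce, and it had 8.36, 8.25 and 8.48 on the D319N arrays, 8.996, 8.91 and 8.89 on the Y261A arrays and 9.39, 9.40 and 9.42 on the vector arrays. It is the member with the largest fall, 2.05-fold in D319N cells (log2 -1.04 ± 0.06 SE, adjusted p = 5.12e-05), with vector highest, Y261A between and D319N lowest on every array. ANKRD37, a small ankyrin repeat gene induced by HIF, was not called (log2 -0.03 ± 0.03 SE, adjusted p = 0.521).

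**Figure D2:**
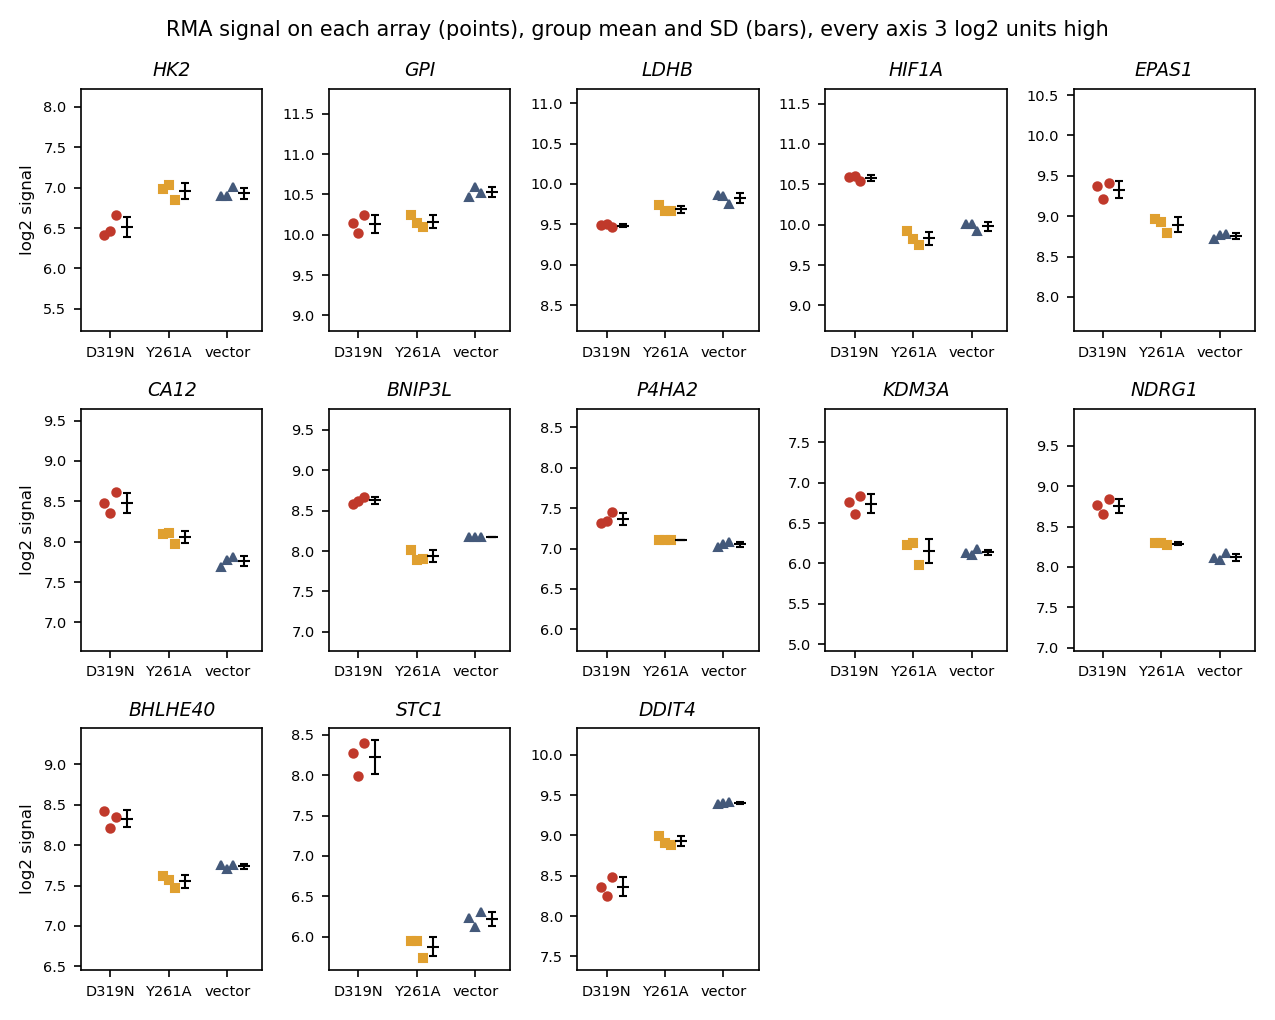
RMA log2 signal (y axis, every panel 3 log2 units high) of the 13 called members that differ by at least 0.3 in some comparison, with 1 point per array and the group mean ± SD beside the points. D319N stands lowest for HK2, GPI, LDHB and DDIT4 and highest for the other 9, with GPI about level between D319N and Y261A.

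At the entry to glycolysis the transporters and hexokinases differed among themselves. SLC2A1, the main glucose transporter of epithelial cells, averaged 8.27 ± 0.12 in D319N, 8.42 ± 0.07 in Y261A and 8.42 ± 0.06 in vector cells and was not called in D319N cells (log2 -0.16 ± 0.06 SE, adjusted p = 0.165, and 0.0164 with quantile normalization), and SLC2A3, another glucose transporter, was near background. HK2 encodes the inducible hexokinase, which traps glucose in the cell, and had 6.42, 6.47 and 6.66 on the D319N arrays, 6.99, 7.04 and 6.84 on the Y261A arrays and 6.89, 6.89 and 7.01 on the vector arrays. D319N lay below all other arrays, and HK2 fell 1.34-fold (log2 -0.42 ± 0.08 SE, adjusted p = 0.00935). The constitutive hexokinase HK1 was not called and differed by -0.03 (95% interval -0.10 to 0.05).

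Further down the pathway, GPI was the enzyme gene with the largest fall after HK2. GPI, which interconverts glucose and fructose phosphates, had 10.15, 10.02 and 10.24 on the D319N arrays, 10.25, 10.14 and 10.10 on the Y261A arrays and 10.47, 10.59 and 10.52 on the vector arrays. Both mutants lay below vector on every array, and GPI fell 1.31-fold in D319N cells (log2 -0.39 ± 0.07 SE, adjusted p = 0.00650). Of the 3 phosphofructokinase genes, which encode the committed step, the muscle form PFKM fell (log2 -0.21 ± 0.06 SE, adjusted p = 0.0438), while the liver form PFKL (0.00) and the platelet form PFKP (0.02) were not called. The enzymes of the triose stage TPI1 (log2 -0.25 ± 0.06 SE, adjusted p = 0.0296), PGAM1 (log2 -0.27 ± 0.06 SE, adjusted p = 0.0184) and ENO1 (log2 -0.16 ± 0.04 SE, adjusted p = 0.0394) fell.

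GAPDH, the dehydrogenase often used as a loading control, averaged 12.37 ± 0.06 in D319N, 12.35 ± 0.05 in Y261A and 12.49 ± 0.03 in vector cells and was not called (log2 -0.12 ± 0.04 SE, adjusted p = 0.0811). The aldolases ALDOA (0.00) and ALDOC (-0.02), the kinases PGK1 (-0.05) and PKM (-0.06), the neuronal enolase ENO2 (-0.04) and the bifunctional enzymes PFKFB3 (0.04) and PFKFB4 (0.02), which set the level of an activator of phosphofructokinase, were not called either. Several glycolytic genes, GAPDH and PGAM1 among them, have processed pseudogenes, and cross-hybridisation was not examined.

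At the fate of pyruvate, all 3 measured members fell. LDHB, the lactate dehydrogenase subunit that favours oxidation of lactate, had 9.49, 9.50 and 9.47 on the D319N arrays, 9.73, 9.66 and 9.66 on the Y261A arrays and 9.86, 9.86 and 9.75 on the vector arrays. The groups stood in order with no overlap, vector highest and D319N lowest, and LDHB fell 1.26-fold in D319N cells (log2 -0.34 ± 0.04 SE, adjusted p = 0.000786). LDHA, the subunit that favours lactate production, averaged 9.43 ± 0.01 in D319N, 9.46 ± 0.02 in Y261A and 9.58 ± 0.06 in vector cells and fell 1.11-fold (log2 -0.15 ± 0.03 SE, adjusted p = 0.0223). PDK1, the kinase that inhibits pyruvate dehydrogenase, averaged 6.75 ± 0.02 in D319N, 6.91 ± 0.00 in Y261A and 6.99 ± 0.06 in vector cells and fell 1.18-fold (log2 -0.24 ± 0.03 SE, adjusted p = 0.00147).

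**Figure D3:**
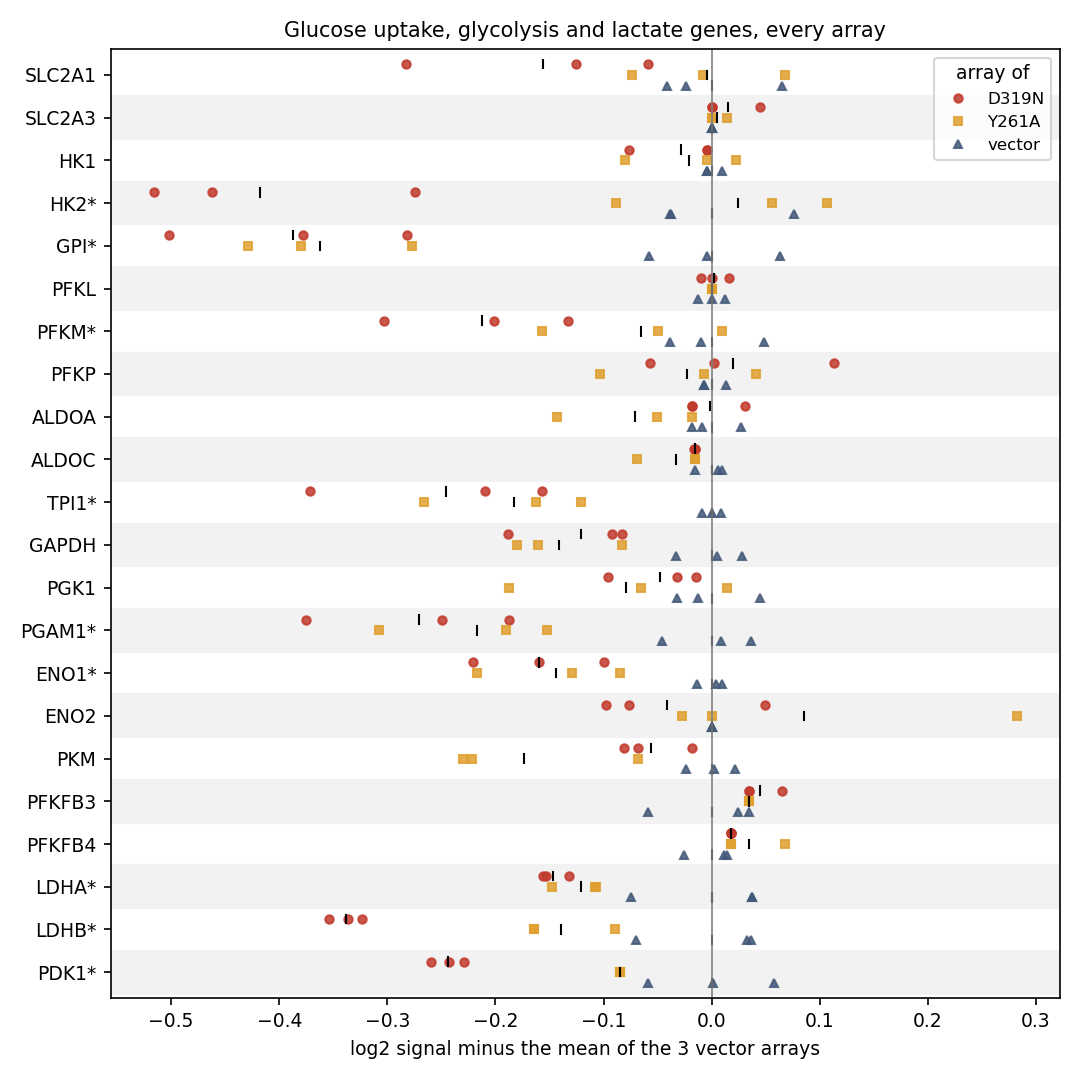
Log2 signal of each glucose to lactate member on each array minus the mean of the 3 vector arrays (x axis), drawn as in the plot of hypoxia members. All 9 called members (asterisks) lie left of 0 on every D319N array. For GPI, TPI1, PGAM1, ENO1, LDHA, LDHB and PDK1 the Y261A squares lie left of the vector triangles too.

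The falls of HK2, GPI and LDHB held in each of 18 alternative fits, and that of PDK1 in all but the one with a spread floor for tied genes (adjusted p = 0.0517). The calls of the other 5, at adjusted p of 0.0184 to 0.0438, did not hold in every fit without 1 array. Leaving out a Y261A array does not change these differences. Without D319N replicate 1 or vector replicate 2, 4 of the 9 were called, and without vector replicate 1 or 3, 5 were. PFKM lost its call without D319N replicate 1 (adjusted p = 0.109) or 2 (0.0839), any vector array (0.0850 to 0.130) or Y261A replicate 1 (0.0733). TPI1 lost it without D319N replicate 1 (adjusted p = 0.0665), any vector array (0.0842 to 0.0920) or Y261A replicate 2 (0.0531). PGAM1 lost it without D319N replicate 1 (adjusted p = 0.0539) or vector replicate 2 (0.0672) or 3 (0.0635). ENO1 lost it without D319N replicate 1 (adjusted p = 0.108) or 2 (0.0791), any vector array (0.0966 to 0.117) or Y261A replicate 2 (0.0658), and its difference was -0.06 with both rows averaged. LDHA lost it without D319N replicate 1 (adjusted p = 0.0739) or 3 (0.0697) or vector replicate 1 (0.0818) or 2 (0.0825). With the arrays centred, HK2, GPI, LDHB and PDK1 were called, and none of the 9 differences turned direction in these fits.

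In Y261A cells DDIT4 was the only member called (1 of 40, 2.5%, against 0.353% of all genes). It fell 1.39-fold (log2 -0.47 ± 0.06 SE, adjusted p = 0.0284), without overlap with vector. This call was lost without D319N replicate 1 (adjusted p = 0.0806), without any 1 vector array (0.0619 to 0.135) and without any 1 Y261A array (0.0800 to 0.145), while its difference lay between -0.50 and -0.36 in all alternatives. At an unadjusted p under 0.05 there were 16 members, against 10.4% of all genes. Over all genes the calls were 31 higher and 48 lower, and 78 and 56 with quantile normalization.

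Called or not, 18 of 40 members had Y261A and vector arrays that did not overlap, 5 higher and 13 lower, against 13.4% of all genes (4.11% higher and 9.24% lower). Of the 13 lower, 9 were glucose to lactate members. They were GPI (-0.36, adjusted p = 0.109), PGAM1 (-0.22, adjusted p = 0.261), TPI1 (-0.18, adjusted p = 0.358), PKM (-0.17, adjusted p = 0.246), ENO1 (-0.14), GAPDH (-0.14), LDHB (-0.14), LDHA (-0.12) and PDK1 (-0.08). The other 4 were DDIT4, STC1 (-0.34, adjusted p = 0.356), BNIP3L (-0.23, adjusted p = 0.0793) and BHLHE40 (-0.18, adjusted p = 0.373), the last 3 of which rose in D319N cells. The 5 higher were CA12 (0.30, adjusted p = 0.201), NDRG1 (0.17, adjusted p = 0.274), EPAS1 (0.14, adjusted p = 0.512), P4HA2 (0.05) and PFKFB4 (0.03). With quantile normalization CA12 (adjusted p = 0.0152), EPAS1 (0.0394) and NDRG1 (0.0432) were called higher. HIF1A stood at -0.15 in Y261A cells (adjusted p = 0.358). Both mutants were set against the same vector arrays, so the values of the 2 comparisons are not independent. The median over members was -0.03, and 0.00 over all genes.

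Set directly against each other, the mutants differed in 14 of 40 members (35.0%, against 14.6% of all genes), with 10 higher in D319N and 4 lower (9.92% and 4.72% of all genes). At an unadjusted p under 0.05 there were 18 members, against 34.4% of all genes, and in 15 the mutants' arrays did not overlap, against 28.1%. The split was 11 higher and 2 lower with the arrays centred, and 10 each way with quantile normalization, where SLC2A1, HK1, PFKM, TPI1, PGAM1 and LDHA were also called lower. Over all genes it was 2224 higher and 1057 lower, 2380 and 677 with centring and 2321 and 1897 with quantile normalization. All 14 had been called in the same direction in D319N against vector, a comparison that uses the same D319N arrays. The rises were those of STC1 (5.10-fold, log2 2.35 ± 0.11 SE, adjusted p = 4.37e-05), BHLHE40 (0.77, adjusted p = 0.000337), HIF1A (0.75, adjusted p = 0.000160), BNIP3L (0.69, adjusted p = 9.04e-05), KDM3A (0.59, adjusted p = 0.00392), NDRG1 (0.47, adjusted p = 0.000832), EPAS1 (0.43, adjusted p = 0.00486), CA12 (0.42, adjusted p = 0.00828), P4HA2 (0.27, adjusted p = 0.00378) and VEGFA (0.20, adjusted p = 0.00262). DDIT4 (-0.57, adjusted p = 0.00103), HK2 (-0.44, adjusted p = 0.00914), LDHB (-0.20, adjusted p = 0.0105) and PDK1 (-0.16, adjusted p = 0.0121) were lower. LDHB (adjusted p = 0.0774) and PDK1 (adjusted p = 0.145) lost this call with the arrays centred, and LDHB (0.133), PDK1 (0.261) and VEGFA (0.127) with the spread floor.

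Of the members that fell in D319N cells, 6 did not pass between the mutants. D319N minus Y261A was -0.03 for GPI (95% interval -0.18 to 0.13), -0.06 for TPI1 (-0.20 to 0.08) and -0.05 for PGAM1 (-0.19 to 0.08). It was -0.02 for ENO1 (-0.11 to 0.08), -0.03 for LDHA (-0.10 to 0.05) and -0.15 for PFKM (-0.28 to -0.01, adjusted p = 0.125). A missed threshold does not show that the mutants act alike, and for GPI the interval leaves room for a difference of up to 0.18. Of the hexokinase members HK1 and HK2, only HK2 was called between the mutants in the reported fit, with Y261A at 0.02 against vector (-0.15 to 0.20). HK1 was called lower in D319N with quantile normalization (adjusted p = 0.00947). HK3, a hexokinase gene outside the members, stood at -0.21 between the mutants without overlap (adjusted p = 0.105).

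Other genes of the same pathways were read from 6 lists. Beside their counts, 8.93% of all genes were called higher and 7.66% lower in D319N against vector. At the entry of pyruvate into mitochondria, 5 of 13 fell and 1 rose in D319N cells. DLAT, the acetyltransferase core of pyruvate dehydrogenase, had 7.84, 7.81 and 7.995 on the D319N arrays, 8.24, 8.25 and 8.13 on the Y261A arrays and 8.59, 8.57 and 8.45 on the vector arrays and fell 1.57-fold (log2 -0.65 ± 0.06 SE, adjusted p = 0.000502), with Y261A between the other groups and no overlap. The mitochondrial pyruvate carrier genes MPC1 (-0.38, adjusted p = 0.000159) and MPC2 (-0.29, adjusted p = 0.00369) and the dehydrogenase subunit gene PDHB (-0.21, adjusted p = 0.0156) fell as well, and PDHB lost its call without D319N replicate 3 (adjusted p = 0.0565), with the arrays centred (0.0562), with only the 2 groups fitted (0.0589) and with the spread floor (0.104). In the pentose phosphate pathway 1 of 6 fell, the transketolase gene TKT (-0.42, adjusted p = 0.00752).

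In glycogen metabolism 3 of 10 rose and 1 fell. UGP2, which makes the UDP-glucose used for glycogen, had 8.05, 8.10 and 7.95 on the D319N arrays, 6.87, 6.87 and 6.73 on the Y261A arrays and 6.71, 6.68 and 6.66 on the vector arrays. D319N stood apart from both other groups, and UGP2 rose 2.55-fold (log2 1.35 ± 0.05 SE, adjusted p = 1.03e-05). The glycogen phosphorylase gene PYGB (0.64, adjusted p = 0.00297) and the branching enzyme gene GBE1 (0.54, adjusted p = 0.00248), itself known as hypoxia-induced, rose too, and the primer protein gene GYG1 fell (-0.17, adjusted p = 0.00217), a call lost with the arrays centred (adjusted p = 0.0983) and with the spread floor (0.263). Among 22 other genes of glucose metabolism 2 rose, near the share of all genes called higher (8.93%). They were MINPP1 (0.33, adjusted p = 0.0440) and BPGM (0.23, adjusted p = 0.0496), and these calls held in 2 and 1 of the 9 fits without 1 array.

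Among 30 other hypoxia targets 10 rose and 4 fell in D319N cells. Not all of these calls held in the alternatives. Of those that rose, TMEM45A and INSIG2 lost the call without D319N replicate 1 (adjusted p = 0.0634 and 0.0852). Of those that fell, CA2 and MXI1 lost it with the arrays centred (adjusted p = 0.172 and 0.0894). ANGPTL4, a secreted inhibitor of lipoprotein lipase, had 10.01, 9.81 and 10.07 on the D319N arrays, 8.39, 8.36 and 8.30 on the Y261A arrays and 7.99, 8.08 and 8.12 on the vector arrays and rose 3.73-fold (log2 1.90 ± 0.07 SE, adjusted p = 7.82e-06), again with Y261A between and no overlap. CCNG2, an unconventional cyclin, rose (0.46, adjusted p = 0.000108). AK4, a mitochondrial adenylate kinase, fell 1.56-fold (log2 -0.64 ± 0.05 SE, adjusted p = 0.000190), and FAM162A, a mitochondrial protein gene induced by HIF, fell (-0.49, adjusted p = 0.000215). None of 13 other components of the HIF pathway was called by limma in the reported fit of D319N against vector. At an unadjusted p under 0.05, 4 were higher and none lower, near the 28.5% of all genes in either direction. Against Y261A 4 of the 13 were called higher, beside 9.92% of all genes, and they are named after their values were seen. They were the HIF partner ARNT (0.34, adjusted p = 0.0219), CITED2 (0.31, adjusted p = 0.0165), CREBBP (0.31, adjusted p = 0.0359) and CUL2 (0.27, adjusted p = 0.0489). ARNT and CITED2 lost this call without D319N replicate 1 or 3 (adjusted p up to 0.0828 and 0.0645) and with only the 2 groups fitted (0.0900 and 0.0729). CREBBP and CUL2 held it in 2 and 1 of the 9 fits without 1 array. Against vector, each of these 4 was called higher in some alternatives. ARNT was so with quantile normalization (adjusted p = 0.0369), with only the 2 groups fitted (0.0333) and without Y261A replicate 3 (0.0131). In Y261A against vector no gene of the 6 lists was called by limma. At an unadjusted p under 0.05, which 10.4% of all genes passed, there were 7 of 13 for pyruvate entry, all lower, and 5 of 30 for other hypoxia targets. There were 2 of 10 for glycogen, 2 of 22 for other glucose genes, 1 of 6 for the pentose phosphate pathway and 0 of 13 for HIF components. The list medians in D319N against vector were -0.17 for pyruvate entry, -0.11 for the pentose phosphate pathway, 0.15 for glycogen, -0.06 for other glucose genes, 0.05 for HIF components and 0.01 for other hypoxia targets, beside -0.03 over all genes.

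**Figure D4:**
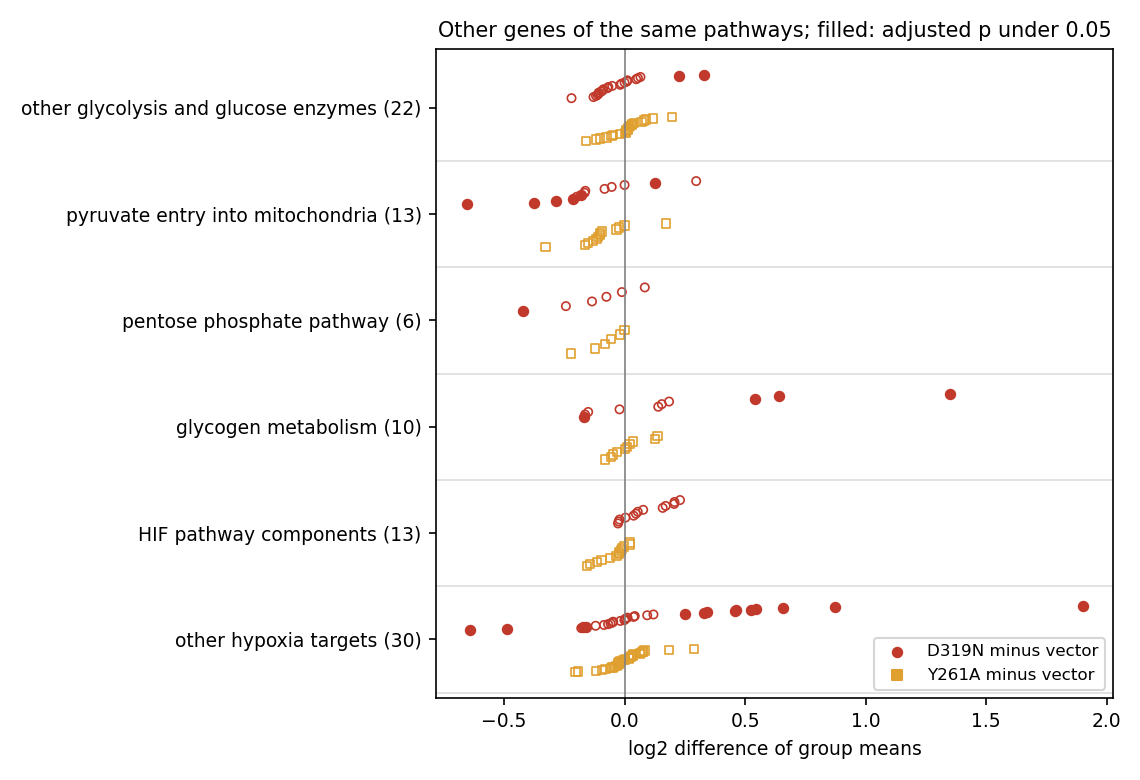
Log2 difference of group means against vector (x axis) for each measured gene of the 6 further lists (rows, number measured in brackets), with D319N as circles above and Y261A as squares below, filled where the adjusted p is under 0.05. Filled D319N circles lie mostly left of 0 for pyruvate entry and mostly right of 0 for glycogen and other hypoxia targets, and no Y261A square is filled.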

How the data were processed

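The authors deposited log2 signals from RMA, run in Affymetrix Expression Console 1.4 per the submitters' processing notes. This method corrects background, equalises the distribution of intensities over arrays and summarises probes by median polish. They ran from 1.08 to 14.45, and no further normalization was applied. Arrays carry no counts, and their number limits the precision. For the array, no genome build is given in the sources used here. Of 70523 array rows, 23781 carried a single gene symbol (1543 several) in the platform's annotation. Symbols were updated through Entrez identifiers or unambiguous synonyms in RefSeq tables (306 changed), which left 22411 genes after keeping the row with the highest mean. limma 3.58.1 in R 4.3.3 fitted a mean per group to all 9 arrays (6 residual and 1.23 prior degrees of freedom), and p-values were adjusted by Benjamini-Hochberg over all genes. Errors are SDs over 3 arrays for levels and moderated standard errors for differences. The fit was tested on simulated data with independent noise. These held no tied values and no arrays that deviate together, so the test does not cover those features of the real arrays. The members, lists and tests were chosen with earlier results of these data known. Members called in any comparison were named singly, with array values where they differ by at least 0.3, and of the other lists up to 4 called genes with the smallest p. Further list genes were named for differences between the mutants or for calls lost in alternatives. Alternatives left out arrays, added a replicate block, centred or quantile-normalized the arrays, filtered low genes, changed the moderation, used only the groups compared, averaged rows or set a floor on the spread of tied genes.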

Additional observations from a re-analysis of the deposited data

Results flagged for a closer look

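In 3 members the mutants lay on opposite sides of the vector arrays without overlap and differed from each other past the threshold. D319N minus Y261A was 2.35 for STC1, 0.69 for BNIP3L and 0.77 for BHLHE40 (log2, limma adjusted p = 4.37e-05, 9.04e-05 and 0.000337). Their levels in Y261A against vector did not pass.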

How the results depend on the processing

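No direction of a called difference turned in any alternative. In D319N against vector, 13 of 21 member calls held in all 18 alternatives, and the count ran from 15 to 21 without 1 array. In D319N against Y261A, 11 of 14 held, and the count ran from 14 to 15 without 1 array, with PKM added (adjusted p = 0.0126) without Y261A replicate 1. In Y261A against vector the count of 1 ran from 0 to 1 without 1 array, and was 0 with the replicate block, 0 with the arrays centred, 4 with quantile normalization and 3 with the spread floor for tied genes. There GPI (adjusted p = 0.0120) and STC1 (0.0217) passed beside DDIT4. The labels state no pairing, and arrays with equal replicate numbers had correlations of deviations from -0.45 to 0.21. Deviations balance out within a group, and D319N replicate 2 and Y261A replicate 3 deviated together. These correlations therefore cannot decide whether the samples were paired. With the replicate block 16 members were called in D319N against vector and 14 in D319N against Y261A. Without D319N replicate 2 and Y261A replicate 3 together, 7979 genes were called in D319N against vector in place of 3718, and 22 members in place of 21, with ENO2 and P4HA1 gained and ADM lost. Over all genes in Y261A against vector the count of 79 became 13 with the replicate block, 45 with centring, 134 with quantile normalization, 293 with the spread floor and 157 without those 2 arrays. In D319N against Y261A it was 1933 in place of 3281 with only these groups fitted, and 6259 without those 2 arrays. Signal near background limits SLC2A3 and EGLN3.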
